A study of Mus musculus with 5 samples.

Results

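The genes described here are 9 markers of bile duct epithelium and of the ductular cells next to it, namely Epcam, Cd24a, Tm4sf4, Krt7, Krt19, Krt23, Sox9, Cftr and Pkhd1. They were taken by symbol from a table of 33589 rows of liver RNA-seq values, and all 9 had a row. The study holds 5 mouse livers. The knockout livers (n = 3) had the genotype Lyve1-Cre;Hegfl/fl, in which a Cre recombinase driven by Lyve1 is combined with floxed Heg1. The control livers (n = 2) had the genotype Hegfl/fl, with the floxed gene and no Cre. Mice of both groups were males, 6 weeks old at the start of a high-fat diet that lasted 4 weeks, and whole liver RNA was sequenced. Lyve1-Cre is known to act in lymphatic and liver sinusoidal endothelium and in part of the blood-forming cells of the mouse, and not in bile duct epithelium. The labels do not state that each library came from a separate animal, and all errors and p-values are therefore those of 5 libraries.

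Bile ducts are lined by cholangiocytes, which carry bile out of the liver and add bicarbonate and water to it. They arise in the embryo from the same precursors as hepatocytes under Notch and TGFβ signals, and they keep the transcription factor SOX9, simple epithelial keratins, cell adhesion proteins and a primary cilium. In injured or fatty liver, duct-like cells can multiply around the portal tracts, a response called the ductular reaction, and hepatocytes can switch on some of the same genes.

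The values are FPKM (fragments corrected for transcript length and for library size), so levels can be compared between genes. Genotypes were compared with limma on log2(FPKM + 1), as knockout minus control (a log2 fold change or log2 difference), which understates a relative difference where FPKM are near or below 1. Heg1 had 0.45, 0.43 and 0.50 FPKM in knockout livers 1, 2 and 3, against 0.48 and 0.35 FPKM in control livers 1 and 2, so whole-liver values gave no check of the labels. Lyve1 had 3.90, 7.32 and 10.49 FPKM in knockout livers and 7.34 and 8.92 FPKM in control livers. Sums of FPKM lay between 797692 and 820498 per library, and the sequencing depth is unknown. In whole liver, fewer cells of a type and less RNA per cell cannot be told apart.

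None of the 9 duct genes differed between genotypes past the threshold of 0.05 on adjusted p. Epcam, Krt19 and Sox9 had means above control, at ratios of 1.78, 1.59 and 1.65, and Tm4sf4 had a mean below control, at a ratio of 0.772. The 95% interval that limma gave for each of these differences included 0. Of the 9 genes 6 had a positive log2 fold change, as did 62.5% of all 18033 genes with any signal, and 3 had a negative one. Of 10820 genes with a mean of at least 1 FPKM, 0 passed (0%), and at an unadjusted p below 0.05 there were 757 (7%). None of the 9 duct genes had an unadjusted p below 0.05. Only 5 of the 9, Epcam, Cd24a, Tm4sf4, Krt19 and Krt23, reached that mean of 1 FPKM. Sox9, Krt7 and Pkhd1 were fitted among 14401 genes with a mean of at least 0.1 FPKM, and Cftr among 18033 genes with any value above 0, where again 0 genes passed (0% each) and 920 (6.39%) and 1091 (6.05%) had an unadjusted p below 0.05.

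**Figure D1:**
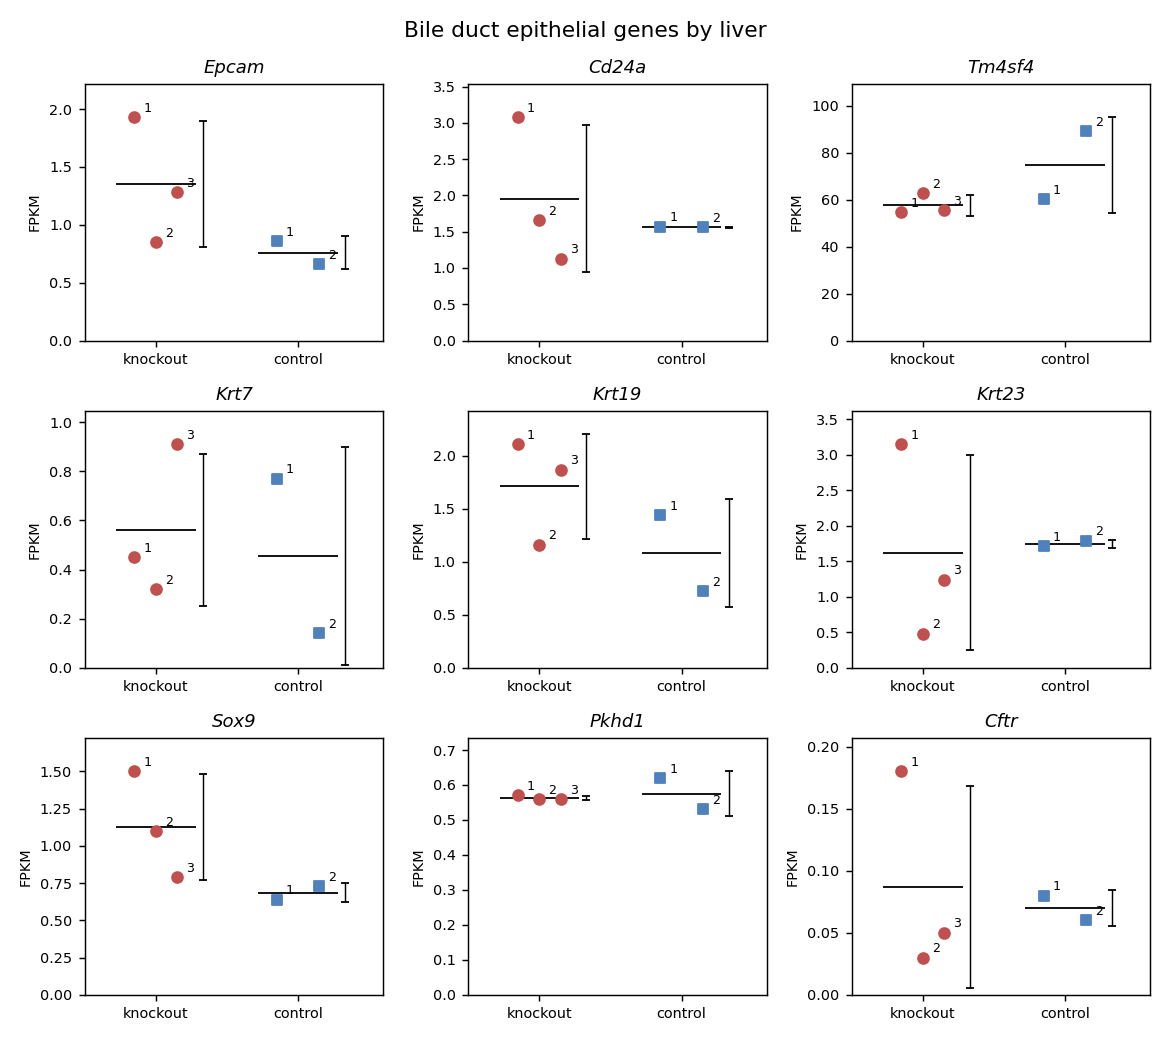
FPKM (vertical axes, each from 0) of the 9 duct genes in the 3 knockout livers (red circles) and the 2 control livers (blue squares), numbered by liver, with the group mean (line) and SD (bar). Knockout 1 is the highest liver for 6 genes, and groups are apart only for Sox9.

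The level of most duct genes was low. Tm4sf4 averaged 64.5 FPKM over the 5 livers and stood above 93.4% of all rows with any signal. The other 8 genes averaged between 0.08 FPKM (Cftr) and 1.80 FPKM (Cd24a), so Tm4sf4 was 35.8 times as high as the next. Summed without Tm4sf4, the duct genes made up 12.97, 6.16 and 7.83 FPKM in knockout livers and 7.69 and 6.19 FPKM in control livers. Knockout 1 held the highest sum and knockout 2 the lowest, close to control 2. Values are deposited with 2 decimals, so the rounding error is at most 16.7% of the lowest Cftr value and at most 3.57% of that of any other duct gene.

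The start-site sequences of duct genes are shown for 3 genes that behaved differently, Epcam with the largest positive log2 fold change in the fit of all 5 livers (0.40, beside 0.39 for Krt19), Tm4sf4 with the largest negative one in that fit, and Krt23 with the widest relative range between livers. The windows run from 250 bases before to 50 bases after the RefSeq start (GRCm38.p6, the assembly also called mm10), and were found for 6 of the 9 genes (Krt7, Krt23, Epcam, Cftr, Tm4sf4 and Pkhd1). They were searched on both strands for the letters ACAAT (the SOX core), GGAATG (TEAD), TGGGAA (RBPJ, the DNA-binding partner of Notch) and AACNNGTT (grainyhead-like factors), and capitals mark the matches, none of which overlapped. The Epcam window is chr17:87635729-87636028 on the plus strand, the Tm4sf4 window chr3:57425160-57425459 on the plus strand and the Krt23 window chr11:99493071-99493370 on the minus strand.
Epcam: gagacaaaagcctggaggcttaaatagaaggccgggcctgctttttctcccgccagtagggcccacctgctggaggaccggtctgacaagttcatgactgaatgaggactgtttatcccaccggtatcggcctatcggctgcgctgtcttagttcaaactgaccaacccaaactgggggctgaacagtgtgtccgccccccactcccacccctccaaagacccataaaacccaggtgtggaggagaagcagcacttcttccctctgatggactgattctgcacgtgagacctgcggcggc
Tm4sf4: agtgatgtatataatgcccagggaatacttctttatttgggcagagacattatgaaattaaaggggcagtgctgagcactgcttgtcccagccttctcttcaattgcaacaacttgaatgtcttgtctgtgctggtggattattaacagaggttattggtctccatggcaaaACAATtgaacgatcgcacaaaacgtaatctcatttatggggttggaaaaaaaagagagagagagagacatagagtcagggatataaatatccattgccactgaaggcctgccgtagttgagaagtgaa
Krt23: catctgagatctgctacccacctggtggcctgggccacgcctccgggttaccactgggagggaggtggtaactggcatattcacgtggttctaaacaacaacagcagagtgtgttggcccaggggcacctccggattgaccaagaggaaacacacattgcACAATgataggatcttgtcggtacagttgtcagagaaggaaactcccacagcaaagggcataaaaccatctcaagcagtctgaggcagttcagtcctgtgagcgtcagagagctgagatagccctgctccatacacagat
The first base of ACAAT lay at -78 relative to the start in the Tm4sf4 window and at -90 in the Krt23 window (-1 is the last base before the start), and these letters were found in 31.0% of all 32851 windows of this length. The Epcam window held none of the motifs. TEAD, RBPJ and grainyhead-like letters were in none of the 6 windows, against 14.7%, 25.6% and 4.2% of all windows.

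Epcam (chromosome 17, 87635979 to 87651129, plus strand, mm10) encodes an adhesion protein that in adult liver marks cholangiocytes and progenitor-like cells and is absent from mature hepatocytes. It had 1.93, 0.85 and 1.28 FPKM in knockout livers 1, 2 and 3, against 0.86 and 0.66 FPKM in control livers 1 and 2. Knockout livers 1 and 3 lay above both controls, while knockout 2 lay just below control 1, so the groups overlapped by 0.01 FPKM. The means were 1.35 ± 0.54 FPKM in knockouts and 0.76 ± 0.14 FPKM in controls (SD, n = 3 and 2). On the log2 scale knockouts differed by 0.40 (SE 0.22, 95% interval -0.13 to 0.93, limma adjusted p = 0.735). The exact two-sided permutation p over the 10 splits of the livers was 0.3, where the smallest possible is 0.1. Without knockout 1 the log2 difference was 0.23.

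Cd24a (chromosome 10, 43578284 to 43584265, plus strand) encodes a small glycoprotein anchored to the outer membrane of cholangiocytes, and also of red blood cells, B cells and neutrophils of the mouse. It stood at 3.08, 1.66 and 1.13 FPKM in knockout livers, against 1.57 and 1.56 FPKM in control livers. Knockout 1 was the high liver, and the other knockouts lay on either side of the controls. The log2 difference was 0.15 (SE 0.27, 95% interval -0.51 to 0.81, limma adjusted p = 0.90, exact permutation p = 0.8). Without knockout 1 it turned to -0.11 (limma adjusted p = 0.883).

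Tm4sf4 (chromosome 3, 57425314 to 57441677, plus strand), which encodes a membrane protein with 4 membrane spans found in liver and intestine, ran the other way. It had 54.70, 62.84 and 55.56 FPKM in knockout livers, against 60.28 and 89.15 FPKM in control livers. The 3 knockouts lay close together, control 1 lay among them, and control 2 was the high liver. Their log2 difference was -0.34 (SE 0.17, 95% interval -0.76 to 0.076, limma adjusted p = 0.722, exact permutation p = 0.2). Without control 2 it was -0.065 (limma adjusted p = 0.955), so its size rested on that library. Its level, far above those of the other duct genes, is of the order of the keratins that hepatocytes also make, since Krt8 averaged 124 ± 12.4 FPKM in knockouts and 152 ± 25.1 FPKM in controls. Control 2 was the highest liver for Krt8 as well, with 169 FPKM, whereas Krt18 was highest in knockout 3, with 143 FPKM against 133 FPKM in control 2.

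Keratins form the intermediate filaments of epithelia, in pairs of a type I and a type II chain. Krt19 (chromosome 11, 100140810 to 100148665, minus strand), the type I keratin of duct cells, had 2.11, 1.16 and 1.87 FPKM in knockout livers, against 1.44 and 0.72 FPKM in control livers. Knockout livers 1 and 3 were above both controls and knockout 2 lay between them. The means were 1.71 ± 0.49 FPKM in knockouts and 1.08 ± 0.51 FPKM in controls, with a log2 difference of 0.39 (SE 0.23, 95% interval -0.17 to 0.94, limma adjusted p = 0.744, exact permutation p = 0.3). It was 0.14 without control 2 and 0.64 without control 1.

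Krt7 (chromosome 15, 101411043 to 101430313, plus strand), a type II keratin of duct cells, had 0.45, 0.32 and 0.91 FPKM in knockout livers, against 0.77 and 0.14 FPKM in control livers. Knockout 3 and control 1 were the high livers, one in each genotype, and the livers spanned a 6.5-fold range. The log2 difference was 0.12 (SE 0.24, 95% interval -0.46 to 0.69, limma adjusted p = 0.924, exact permutation p = 0.8), and it turned to -0.20 without control 2 and to -0.038 without knockout 3. The antisense gene Gm671 overlaps Krt7, and reads of both strands may be mixed in its value.

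Krt23 (chromosome 11, 99477974 to 99493137, minus strand), a type I keratin of duct cells that hepatocytes of injured mouse liver also switch on, had the widest relative range of the 9 genes, 6.56-fold over the 5 livers. It had 3.15, 0.48 and 1.24 FPKM in knockout livers, against 1.71 and 1.79 FPKM in control livers. Knockout 1 was the highest and knockout 2 the lowest of the 5, and both controls lay between them, 0.08 FPKM apart. The log2 difference was -0.20 (SE 0.40, 95% interval -1.16 to 0.77, limma adjusted p = 0.915, exact permutation p = 0.7), and 0.15 without knockout 2. The keratins did not keep a fixed proportion to one another. Krt23 was 1.49, 0.41 and 0.66 times the Krt19 FPKM in knockout livers and 1.19 and 2.49 times it in control livers. Krt7 was 0.21, 0.28 and 0.49 times Krt19 in knockout livers and 0.53 and 0.19 times it in control livers. Epcam kept the narrowest proportion to Krt19 of the 3, at 0.91, 0.73 and 0.68 in knockout livers and 0.60 and 0.92 in control livers.

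Sox9 (chromosome 11, 112782224 to 112787760, plus strand) encodes a transcription factor of cholangiocytes, ductular cells and some hepatocytes beside the portal tract. It had 1.5, 1.1 and 0.79 FPKM in knockout livers, against 0.64 and 0.73 FPKM in control livers. All 3 knockouts lay above both controls, the nearest by 0.06 FPKM, which held for no other duct gene. Across all 18033 genes with any signal 15.2% had knockouts above controls in this way, and 17.8% of the 14401 genes with a mean of at least 0.1 FPKM did, so 1 of 9 is close to the background. The means were 1.13 ± 0.36 FPKM in knockouts and 0.69 ± 0.064 FPKM in controls, with a log2 difference of 0.33 (SE 0.17, 95% interval -0.077 to 0.73, limma adjusted p = 0.777, exact permutation p = 0.2). It was 0.20 without knockout 1.

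Cftr and Pkhd1 act at the apical side of the duct cell. Cftr (chromosome 6, 18170687 to 18322768, plus strand), the chloride and bicarbonate channel that drives fluid into bile, had 0.18, 0.03 and 0.05 FPKM in knockout livers, against 0.08 and 0.06 FPKM in control livers. Knockout 1 was the high liver and the other knockouts lay below both controls, at a level where rounding weighs. The log2 difference was 0.020 (SE 0.068, 95% interval -0.15 to 0.19, limma adjusted p = 0.956), and -0.041 without knockout 1. Pkhd1 (chromosome 1, 20057779 to 20618064, minus strand) encodes fibrocystin, a protein of the primary cilium whose loss gives recessive polycystic disease of kidney and bile ducts. It had 0.57, 0.56 and 0.56 FPKM in knockout livers, against 0.62 and 0.53 FPKM in control livers. All knockouts lay between the controls, and the highest liver was 1.17 times the lowest. The log2 difference was -0.010 (SE 0.11, 95% interval -0.27 to 0.25, limma adjusted p = 0.988). Antisense genes overlap Cftr (Gm15592) and Pkhd1 (4930486I03Rik, listed at 0 in all 5 livers).

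**Figure D2:**
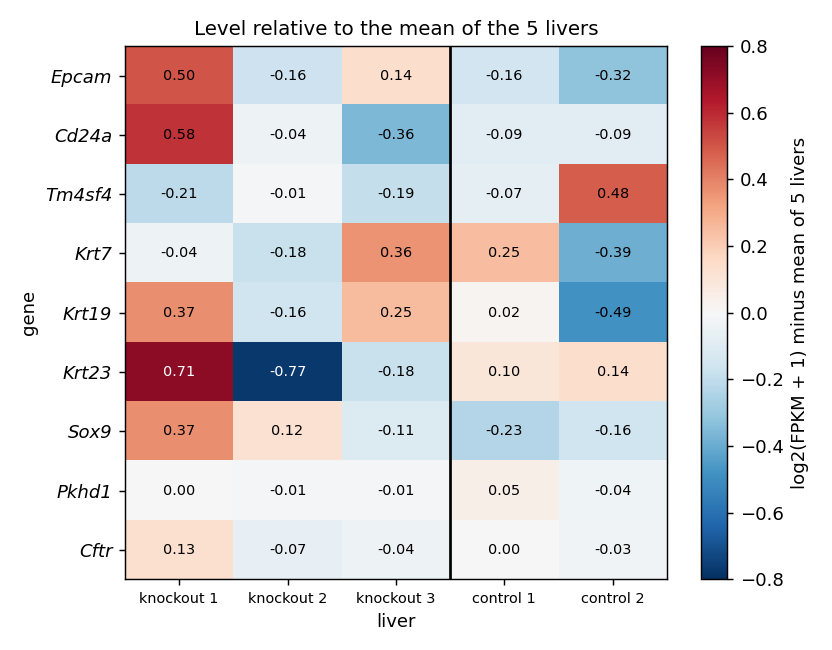
Log2(FPKM + 1) of each duct gene (rows) in each liver (columns, knockouts left of the line) minus the gene's mean over the 5 livers, on a scale from blue (below the mean) to red (above). Knockout 1 is above the mean for Epcam (0.50), Cd24a (0.58), Krt19 (0.37), Krt23 (0.71), Sox9 (0.37) and Cftr (0.13). It is below the mean for Tm4sf4 (-0.21) and slightly for Krt7 (-0.041), and near it for Pkhd1 (0.0021).

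Most of the duct genes were highest in the same library. Of the 9 genes 6 were highest in knockout 1, none in knockout 2, 1 in knockout 3 (Krt7), 1 in control 1 (Pkhd1) and 1 in control 2 (Tm4sf4). Among the 8 with a mean of at least 0.1 FPKM, 5 were highest in knockout 1, against 23.5% of all 14401 genes at that level. Relative to their mean over the livers, the 5 genes above 1 FPKM averaged 0.39, -0.23 and -0.066 in knockout livers and -0.040 and -0.055 in control livers on the log2(FPKM + 1) scale. The controls lay between knockout 1 and knockout 2. Their median log2 fold change was 0.15, beside 0.061 for all 10820 genes, and without knockout 1 it was -0.11. With the FPKM scaled between libraries so that all genes centred near 0 (median 0.0026), the directions of the 9 genes were those given above.

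Closest to one another in profile were Cftr and Pkhd1, which both vary little on this scale, with a root mean square difference of 0.068 in log2(FPKM + 1) over the 5 livers. Krt19 and Epcam followed at 0.13 and Sox9 and Cd24a at 0.18, whereas Krt23 and Tm4sf4 stood furthest apart at 0.56. Outside the list, the genes nearest to the average profile of the 5 duct genes above 1 FPKM were Ushbp1 (0.030), Acap1 (0.031), Slc17a3 (0.039), Npr1 (0.040) and Phtf1 (0.043). As an example, Slc17a3, a phosphate and anion transporter, had 45.2, 28.7 and 33.8 FPKM in knockout livers and 31.6 and 33.0 FPKM in control livers.

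Markers of other cells were set beside these values. Knockout 1, the high liver for 6 duct genes, was also the liver with the most hemoglobin transcripts. The 4 hemoglobin rows summed to 1235, 168 and 82.1 FPKM in knockout livers and to 73.2 and 75.0 FPKM in control livers. All 5 erythroid genes with a mean of at least 1 FPKM, the hemoglobins and Alas2, were highest there, and none passed the test (smallest limma adjusted p = 0.725). The part of red cell RNA in the Cd24a value, or in those of the other genes, was not tested.

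Mesothelial cells cover the liver and are known to make Krt7 and Krt19 too. Their 7 listed genes all lay below 1 FPKM on average and summed to 0.97, 1.34 and 4.75 FPKM in knockout livers and to 3.71 and 2.57 FPKM in control livers. Of the 6 with a mean of at least 0.1 FPKM, 5 had knockout 3 and control 1 as their 2 highest livers, a pair that came first in 6.31% of the 14401 genes at that level. Msln, for mesothelin, had 0.09, 0.09 and 1.34 FPKM in knockout livers and 1.48 and 0.53 FPKM in control livers. Knockout 3 and control 1 were likewise the high livers for Krt7, while Krt19 was highest in knockout 1, where Msln was at 0.09 FPKM. The part of mesothelial RNA in the keratin values was not tested.

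**Figure D3:**
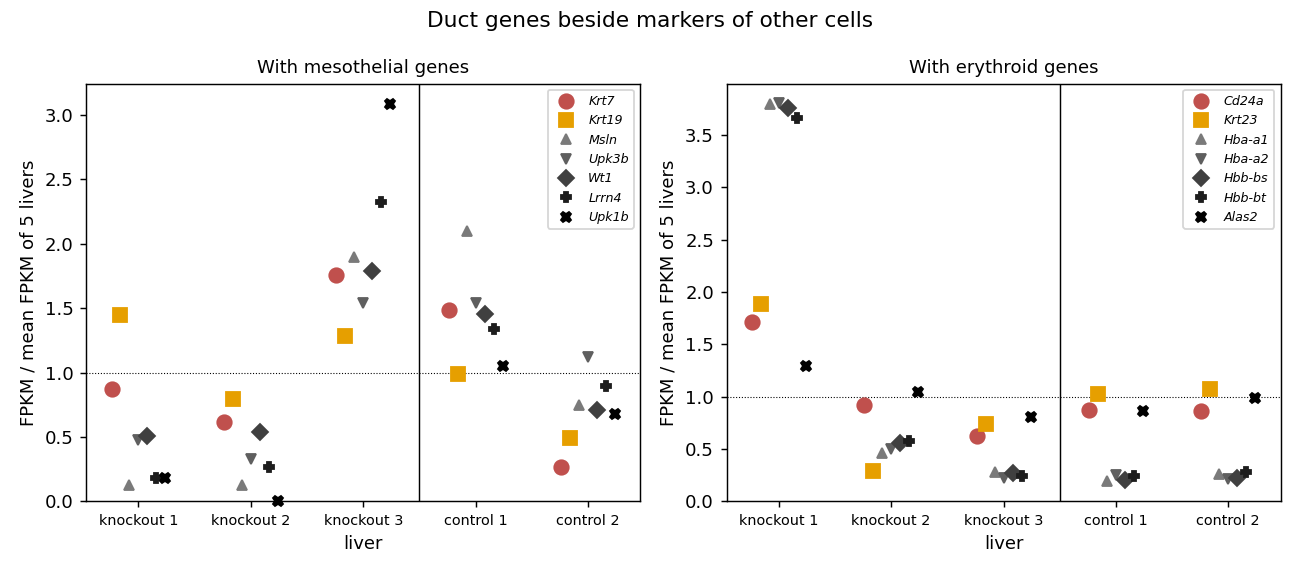
FPKM of each gene divided by its mean over the 5 livers (vertical axes) for Krt7 and Krt19 beside 5 mesothelial genes (left) and for Cd24a and Krt23 beside 5 erythroid genes (right), with knockout livers left of the line. Krt7 and the 5 mesothelial genes shown have knockout 3 and control 1 as their 2 highest livers. Upk1b is at 0.50 FPKM in knockout 3 but only 0.17 FPKM in control 1. Muc16 and Gpm6a are not shown, and Gpm6a is highest in knockout 3 (1.18 FPKM) and control 2 (0.95 FPKM). Hemoglobins, Cd24a and Krt23 are high in knockout 1.

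Pancreas and large-duct epithelium share Krt19, Sox9, Cftr and Epcam with the small ducts, and markers of both were looked up. Of 10 exocrine pancreas genes 8, among them Cpa1, Cel, Pnlip and Prss2, were listed at 0 in every liver. The other 2 were the elastase genes Cela1 and Cela2a. Cela1 had 65.0, 62.8 and 43.1 FPKM in knockout livers and 53.4 and 42.7 FPKM in control livers (limma adjusted p = 0.812). Cela2a had 0.69, 0.84 and 0.92 FPKM in knockout livers and 0.78 and 0.33 FPKM in control livers. Of 7 genes of large ducts and gallbladder the mucins Muc5b and Muc5ac were listed at 0 in all 5 livers. Tff2, a trefoil peptide of mucous cells, had 0.31, 0 and 0.15 FPKM in knockout livers and 0 and 0.13 FPKM in control livers, so that knockout 1 was the high liver. Ltf, for lactoferrin, had 0, 0.43 and 0.45 FPKM in knockout livers and was listed at 0 in both controls, while Tff1 and the mucin Muc6 stood at 0.10 FPKM or less in every liver. Pigr, the antibody transporter that hepatocytes also make in rodents, had 454 ± 15.7 FPKM in knockouts and 449 ± 0.0071 FPKM in controls (limma adjusted p = 0.978). The part of such tissue in the duct gene values was not tested.

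A wider list of 39 biliary epithelial genes was examined next, of which 19 had a mean of at least 1 FPKM. None passed in either direction, 11 had a positive and 8 a negative log2 fold change (64.2% of all 10820 genes had a positive one), and the median was 0.096, beside 0.061 for all genes. Without knockout 1 it was 0.16. Knockout 1 was the highest liver for 4 of the 19, knockout 3 for 6, control 1 for 2 and control 2 for 7. Relative to their mean over the livers, the 19 averaged -0.055 in knockout 1 on the log2(FPKM + 1) scale. The 5 duct genes above 1 FPKM averaged 0.39 there. An unadjusted p below 0.05 was found for Spp1 and Cdh1, 2 of 19 against 7% of all genes. Spp1, for osteopontin, which cholangiocytes and macrophages secrete, had 66.4, 47.8 and 50.4 FPKM in knockout livers, against 25.95 and 38.4 FPKM in control livers. Every knockout lay above both controls, and the log2 difference was 0.76 (SE 0.21, 95% interval 0.26 to 1.26, limma adjusted p = 0.700). Cdh1, for the epithelial adhesion protein E-cadherin, had 19.7, 12.8 and 20.0 FPKM in knockout livers, against 12.5 and 9.89 FPKM in control livers, a log2 fold change of 0.58 (SE 0.21, limma adjusted p = 0.700). Groups did not overlap for 4 of the 19, all with knockouts above controls, against 18.9% of all 10820 genes. The other 2 were Plet1 and Ezr, chosen after their values were seen.

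Cldn3, a tight junction protein of hepatocytes and duct cells, had 79.4 ± 11.9 FPKM in knockouts and 60.9 ± 12.9 FPKM in controls, with a log2 fold change of 0.38 (SE 0.17, limma adjusted p = 0.716). Krt8 and Krt18, the keratin pair that hepatocytes and duct cells share, had log2 fold changes of -0.28 (SE 0.14, limma adjusted p = 0.720) and -0.14 (SE 0.13, limma adjusted p = 0.818). They were the 2 of 13 other keratins above 1 FPKM, and Krt5, Krt17, Krt13 and Krt1 were listed at 0 throughout.

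**Figure D4:**
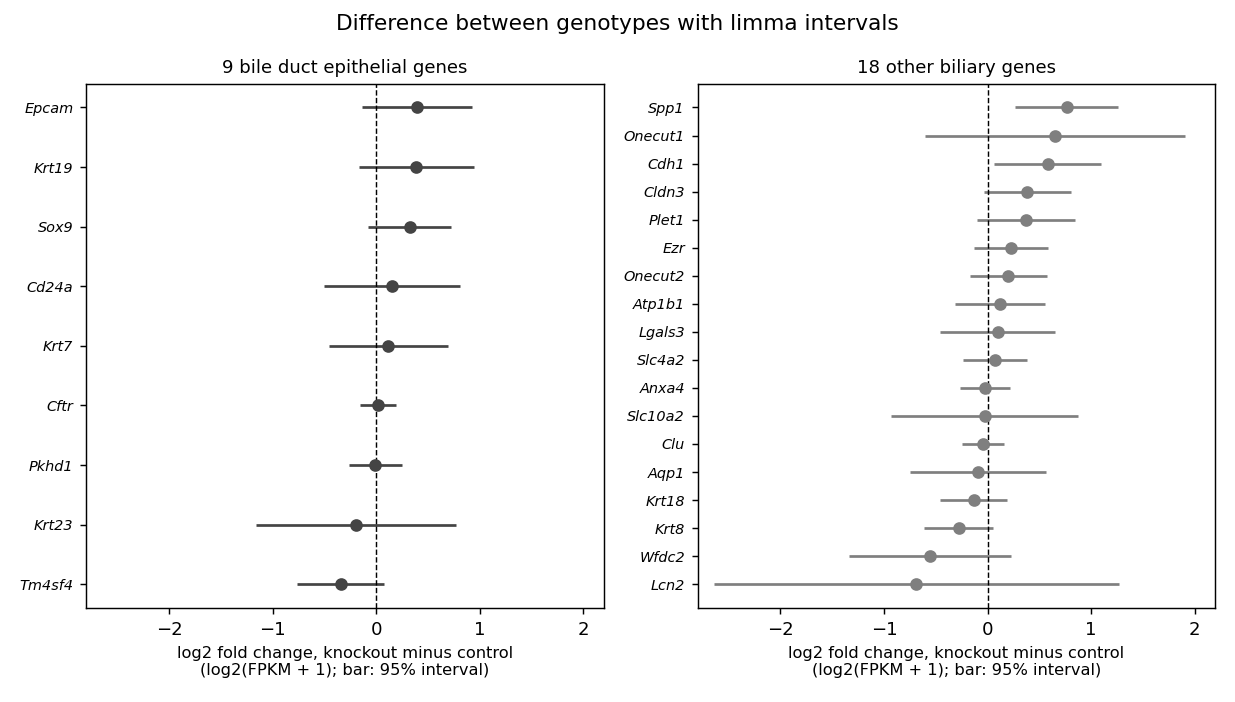
Log2 fold change (point) with limma's 95% interval (bar), knockout minus control on log2(FPKM + 1), for the 9 duct genes (left) and 18 of the 19 other biliary genes with a mean of at least 1 FPKM (right). The intervals of all 9 duct genes include 0, while those of Spp1 (0.26 to 1.26) and Cdh1 (0.066 to 1.10) lie above it before adjustment.

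Genes of the primary cilium and of polycystic disease, to which Pkhd1 belongs by function, numbered 17, and 12 had a mean of at least 1 FPKM. None of the 12 passed, 9 had a positive log2 fold change, and the median was 0.076, beside 0.061 for all genes. Knockouts lay above controls without overlap for 3 of the 12, against 18.9% of all 10820 genes. Arl13b, a GTPase of the cilium membrane, had 1.41, 1.82 and 2.57 FPKM in knockout livers, against 1.32 and 0.97 FPKM in control livers (log2 fold change 0.44, SE 0.20, limma adjusted p = 0.718). Cys1, Invs and Ift140, further cilium genes, had log2 fold changes of 0.36, 0.17 and 0.14. Without knockout 1 the median of this list was 0.050. Other liver cells also carry cilia, and the part of duct cells in these values was not tested.

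Signals that direct cells to the duct fate gave a like picture. Of 20 genes of the Notch, YAP and TGFβ pathways 13 had a mean of at least 1 FPKM and none of them passed, with 8 positive and 5 negative log2 fold changes and a median of 0.11. Notch2, the receptor needed for duct formation, had 3.80, 4.66 and 4.88 FPKM in knockout livers, against 3.04 and 3.61 FPKM in control livers (log2 fold change 0.33, SE 0.14, limma adjusted p = 0.708). Rbpj, its nuclear partner, had 4.53, 4.10 and 4.01 FPKM in knockout livers and 3.60 and 3.02 FPKM in control livers. Knockouts lay above controls for both, and also for Yap1 (named after its values were seen), so for 3 of 13, against 18.9% of all 10820 genes. The Notch target Hes1 overlapped, with a log2 fold change of 0.29 (SE 0.17). In the other direction groups were apart for 1 of 13, against 6.38% of all genes. This was Tnfrsf12a, the receptor for the cytokine TWEAK that drives ductular cells to divide, with 5.43, 4.43 and 5.55 FPKM in knockout livers and 6.36 and 6.46 FPKM in control livers (log2 fold change -0.28, SE 0.13, limma adjusted p = 0.718). Without knockout 1 the median of this list was 0.20. The letters bound by RBPJ and TEAD, the factors through which Notch and YAP act, were in none of the 6 duct gene windows searched above.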

How the data were processed

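RNA from 5 mouse livers was measured by RNA-seq. The deposited values are FPKM per gene symbol, rounded to 2 decimals, and no column of another sample was present (0). HISAT2, StringTie, DESeq2 and the mm10 build are named in the submitters' processing notes, while roles, versions, annotation and strand handling are not given in the sources used here. FPKM are not counts and their depth is unknown, so no count test was run. Log2(FPKM + 1) was fitted in R 4.3.3 by limma 3.58.1 (trended prior) with genotype as the only term, two-sided, with Benjamini-Hochberg adjustment over all genes fitted (mean FPKM of at least 1, or 0.1, or no filter for genes below). The fit was also run on simulated data of genes above 1 FPKM, with larger changes than those of the duct genes. This does not gauge it for smaller changes or for genes at lower levels. Fold changes are knockout minus control. Exact permutation p counted absolute differences over the 10 splits. Gene positions came from GENCODE M21 and start-site windows from RefSeq (GRCm38.p6). The 9 genes and 15 further lists were chosen with earlier results of these data known. Of each further list, up to 4 genes with the smallest unadjusted p among those above 1 FPKM are named, with markers at or near 0 and the 5 genes closest in profile. Some genes of these lists are counted but not reported by name here. Alternatives were 2 other pseudocounts, 3 filters, 2 scalings, no trend, library weights, a replicate block and leaving out each liver.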

Additional observations from a re-analysis of the deposited data

How the results depend on the processing

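Across 15 alternatives the log2 fold changes of the 9 duct genes were recomputed 126 times, 7 of them with the opposite direction and 0 past the threshold (smallest limma adjusted p = 0.555). The other filters and the fit without a trend leave a gene's log2 fold change unchanged, so their agreement in direction was fixed in advance. The 7 were Krt7 without control 2 (-0.200), without knockout 3 (-0.038) and with the replicate block (-0.038), Pkhd1 without control 1 (0.031), Cftr (-0.041) and Cd24a (-0.108) without knockout 1, and Krt23 without knockout 2 (0.149). The cause was not tested. Over the fits without single livers these genes ranged from -0.200 to 0.434 (Krt7), -0.051 to 0.031 (Pkhd1), -0.041 to 0.057 (Cftr), -0.108 to 0.361 (Cd24a) and -0.595 to 0.149 (Krt23). Leaving out single livers, the median of the 5 genes above 1 FPKM ranged from -0.108 to 0.339, duct genes called stayed at 0, and genes called among all those above 1 FPKM ranged from 0 to 1, the 1 being Hamp without control 1. In the fit with no filter, which gave Cftr, leaving out control 2 left control 1 as the only control. Genes of intestinal epithelium were lower in knockouts than in that liver, among them Reg3b, Sis and Zg16. Their log2 fold changes were -2.18, -1.06 and -1.05, and they were named after their values were seen. Krt20 had 0.30 FPKM in control 1 and 0.03 FPKM or less in every other liver. The part of intestinal tissue in the duct gene values was not tested. A filter of 5 FPKM left only Tm4sf4 of the duct genes, at -0.343. The labels number livers within each genotype and name no litter or batch. Deviations of same-numbered livers correlated across genes at 0.227 and 0.196, over 2 pairs. No value for differently numbered livers stands beside these, so they cannot show that the numbers mark a litter or batch. With that number as a replicate block 5 genes passed (Moxd1, Mup9, Mup11, Mup16 and LOC108167922) and 0 duct genes. These genes were named after their values were seen. The Mup genes are near-identical copies whose reads may be split between them. In that fit knockout 3 has no partner and does not bear on the contrast. Lists were also recomputed without knockout 1, an alternative chosen after seeing the data.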

Other observations

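Portal and lobular neighbours of the ducts gave values of the same size. Of 15 portal fibroblast and stellate genes 11 had a mean of at least 1 FPKM and none of them passed, 5 with a positive and 6 with a negative log2 fold change (median -0.026, and 0.066 without knockout 1). Col15a1, a collagen of portal fibroblasts, had 1.66, 1.52 and 1.20 FPKM in knockout livers and 0.74 and 1.19 FPKM in control livers, and Entpd2, an ectonucleotidase of the same cells, 2.03, 2.07 and 2.15 FPKM in knockout livers and 1.54 and 1.99 FPKM in control livers. Col3a1 and Col1a1, fibrillar collagen genes, had log2 fold changes of 0.25 and -0.28. Ligands and cytokines of the ductular reaction had 3 of 10 genes with a mean of at least 1 FPKM and none of the 3 passed. Tnfsf12, for TWEAK, had 10.3, 10.8 and 12.9 FPKM in knockout livers and 10.6 and 6.43 FPKM in control livers, and Cxcl1, a neutrophil chemokine, 14.8, 6.82 and 6.93 FPKM in knockout livers and 6.78 and 8.93 FPKM in control livers. Knockout 1 was the high liver for Cxcl1, as for most duct genes. Vcam1, an adhesion molecule, had a log2 fold change of 0.20 (SE 0.28).

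Hepatocyte genes bracketed these values. Of 12 secretory and identity genes 6 were positive and 6 negative (median -0.044), and Ttr, Asgr1, Cps1 and Pck1 had log2 fold changes of -0.30, -0.23, 0.21 and -0.34. Periportal genes, which are made next to the ducts, were negative in 7 of 10 (median -0.14), where 64.2% of all 10820 genes were positive. Etnppl had 22.8, 29.8 and 21.1 FPKM in knockout livers and 35.5 and 43.4 FPKM in control livers. Ctsc went the other way, with a log2 fold change of 0.29. Pericentral genes were positive in 7 of 10 (median 0.17), close to the 64.2% of all genes. Without knockout 1 they were positive in 3 of 10 (median -0.020). In 7 of the 10 knockout 1 was the highest liver. Slc1a2, Lect2, Gulo and Cyp2e1 had log2 fold changes of 0.24, -0.17, 0.15 and -0.15. No hepatocyte gene of these lists passed (smallest limma adjusted p = 0.689, for Etnppl).

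Leukocytes also make Cd24a. Of 7 B cell genes only Ighm had a mean of at least 1 FPKM, with 2.88, 5.08 and 2.84 FPKM in knockout livers and 1.67 and 2.45 FPKM in control livers (log2 fold change 0.57, SE 0.24, limma adjusted p = 0.708), and Ms4a1 was at 0.10 FPKM or less in every liver. Among genes with a mean of at least 0.1 FPKM, Cd79b and Cd79a (named after their values were seen), for the signalling chains of the B cell receptor, had log2 fold changes of 0.55 and 0.34 (limma adjusted p = 0.766 and 0.773). Cd79b had 0.94, 1.18 and 0.51 FPKM in knockout livers and 0.24 and 0.29 FPKM in control livers, without overlap. Of 9 neutrophil genes S100a8 and S100a9 had a mean of at least 1 FPKM, with log2 fold changes of 0.38 and 0.33 (limma adjusted p = 0.769 for S100a8), and knockout 2 was the high liver for both. Cd24a was highest in knockout 1 instead.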
